A study of Mus musculus with 43 samples.

Results

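CTLL-2 cells, a mouse cytotoxic T cell line derived from a C57BL/6 animal, were compared 1 h after interleukin 2 (IL-2) was given back with the same line at the end of a starvation period. The comparison holds 8 of the 43 arrays of the study, chosen by their titles alone: 3 arrays of IL-2 1 h and 5 arrays of starved cells (starved 0 h). All cells had been grown with IL-2, washed and kept 14 h in medium without it. Human recombinant IL-2 was then added at 100 U/mL, and the study sampled 10 times up to 24 h. The arrays of 0.5 h (n = 3), 2 h (n = 3) and 4 h (n = 4) are used below to place the 1 h values in time. The submitters describe the replicates of each time as biological. No cells were measured after 1 further h without IL-2, so that IL-2 and 1 more hour in culture cannot be told apart. CTLL-2 is 1 line of 1 animal, and its cells depend on IL-2.

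IL-2 signals through a receptor of 3 chain types that activates the kinases JAK1 and JAK3, and these phosphorylate the transcription factor STAT5. The same receptor also feeds the MAP kinase pathway, which ends on the transcription factors SRF and AP-1, and the PI3 kinase pathway. In T cells the first transcripts to change after such a signal come from immediate early genes, which need no new protein synthesis, and many of these encode the proteins that later shut the pathway down.

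Expression was measured on Affymetrix Mouse Genome 430 2.0 arrays, each with 45101 probe sets. The values are the signals the authors deposited, on a linear scale, and differences are given on the scale log2(signal + 16). Because 16 is added to every signal, the log2 difference understates the change of dim probe sets. All arrays had been scaled to about the same trimmed mean, while the median signals of the 8 compared arrays ran from 61.9 to 116.2. The highest medians were those of starved replicate 2 (112.2) and IL-2 1 h replicate 1 (116.2), the only arrays of the 2 groups that were scanned on scan day 2. Actin 3′/5′ ratios were 1.068 to 1.364 in starved and 1.128 to 1.23 in IL-2 1 h arrays, and the ranges overlapped. Of 14 T cell markers on the array, 13 lay above the array median on all 8 arrays, among them the CD3 chain gene Cd3e at 4695 to 9480 in starved and 4861 to 5934 in IL-2 1 h arrays, whereas Cd2 lay below it on all 8 (3.3 to 56.6). No B cell, fibroblast or erythroid marker lay above the median on all 8 arrays, and 3 of 8 macrophage markers did. The summed signal of the fibroblast markers was 132 to 1090 in starved and 542.5 to 1021 in IL-2 1 h arrays, and that of the macrophage markers 1184 to 2427 and 1916 to 2092. None of these markers was called, but all 7 tested fibroblast markers had a positive difference at 1 h, with a median of 0.65, and so had 5 of 6 macrophage markers, with a median of 0.45. The part of these low signals in the results below was not tested.

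A small set of transcripts was far higher 1 h after IL-2 than in starved cells. Inhibitors of cytokine signalling, immediate early transcription factors, MAP kinase phosphatases, Myc, Mycn and the secreted factors Hbegf and Osm led the rises, and lower transcripts were fewer. The median difference was 1.49 over the higher and -1.54 over the lower called probe sets. Of 32184 probe sets tested, 167 (0.519%) were called at an adjusted p under 0.05 (limma, Benjamini-Hochberg). The called probe sets comprised 125 higher (0.388%) and 42 lower (0.13%), so that 74.9% of them were higher, against 63.9% when each array was centred on its median. At an unadjusted p under 0.05 the same fit held 2888 probe sets. Leaving out 1 of the IL-2 1 h arrays lowered the count to 84 (replicate 2 left out) or 83 (replicate 3 left out). Without replicate 1 it was 188, of which 103 were higher and 85 lower, so that 54.8% were higher. With array weights 33.4% were higher.

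The called probe sets covered 95 genes with a rise and 32 with a fall. In 164 of the 167, 125 higher and 39 lower, the arrays of the 2 groups did not overlap, which held for 2.75% (higher) and 3.17% (lower) of all tested probe sets. Of the higher probe sets 108 rose by more than 2-fold and 38 by more than 4-fold, and of the lower ones 36 and 8 fell by as much. Counted on 1 probe set per gene, the brightest one, 96 of 14534 genes were called (0.661%): 76 higher (0.523%) and 20 lower (0.138%). The same number of genes without overlap between the groups, called or not, was 408 higher (2.81%) and 520 lower (3.58%). Other probe sets of the same genes bear on these calls. Of the 66 raised genes with several tested probe sets, all other probe sets had the same sign in 56, with a median of 0.88 for those other probe sets. Among the 18 lowered genes with several, this held in 10, with a median of -0.31.

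**Figure D1:**
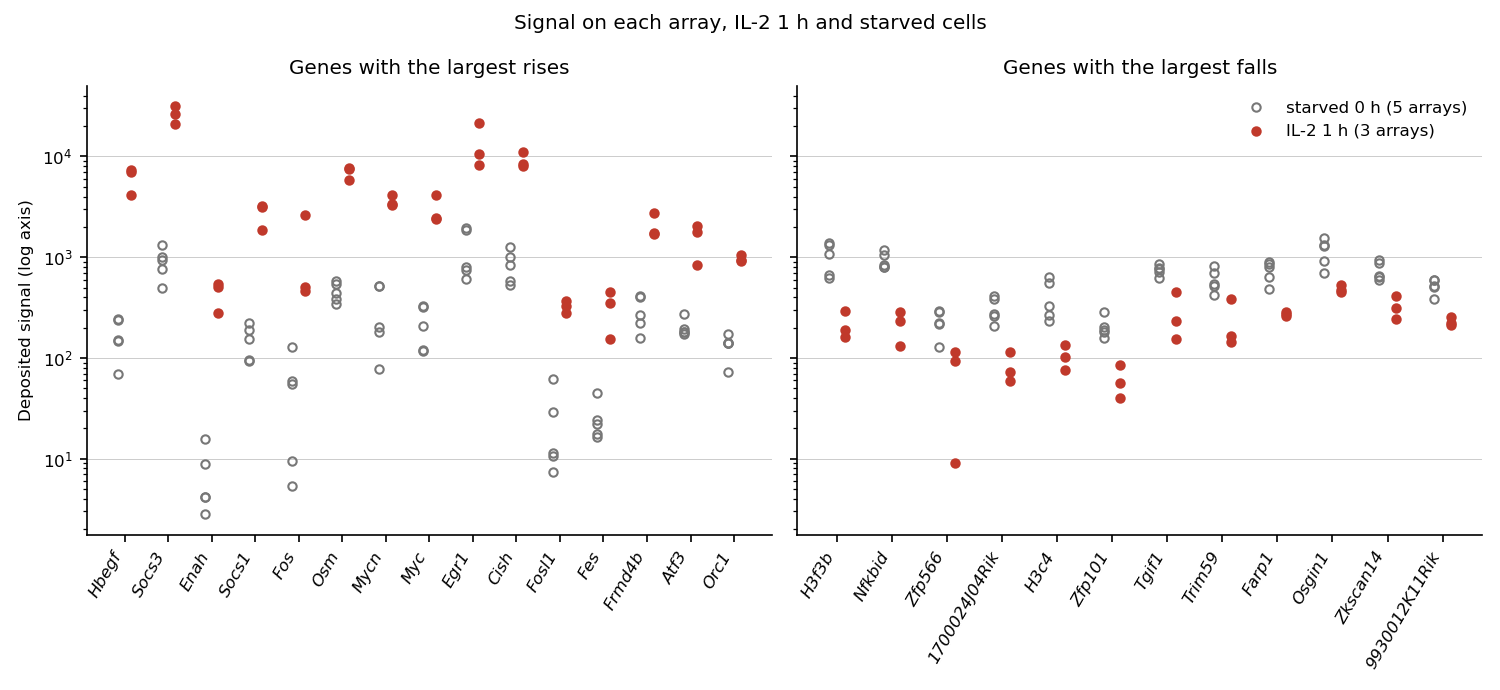
Deposited signal (log axis) of the 15 genes with the largest called rises and the 12 with the largest called falls, on the brightest probe set of each gene. Open grey circles are the 5 starved arrays and red circles the 3 IL-2 1 h arrays. Genes were picked among called genes whose groups do not overlap, so the lack of overlap was fixed by the choice. The separation is wider among the rises, where Socs3 goes from 499.3 to 1334 up to 20860 to 31360.

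Feedback inhibitors of JAK-STAT signalling gave some of the largest rises. Socs3, whose protein binds JAK-coupled receptors and blocks the kinase, had signals of 945.3, 1334, 995.6, 499.3 and 762 on starved replicates 1 to 5 and 31360, 20860 and 26510 on the IL-2 1 h arrays. The lowest 1 h array lay far above the highest starved array. Its log2 difference was 4.88 ± 0.49 (SE, adjusted p = 2.56e-08), and 3 probe sets of the gene were called at 4.88 to 5.20.

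Socs1, a second kinase inhibitor of the family, had 92.2, 187.7, 154.8, 223.5 and 95.8 in starved and 1866, 3239 and 3155 in IL-2 1 h arrays. Its log2 difference was 4.08 ± 0.54 (adjusted p = 8.32e-06). Cish, a STAT5 target that competes at the receptor, had 829, 1257, 586.5, 530.4 and 995.2 in starved and 7966, 8417 and 10960 in IL-2 1 h arrays, a difference of 3.47 ± 0.45 (adjusted p = 5.99e-06). Both genes were higher on every IL-2 1 h array than on any starved array, and their calls held whichever of the 8 arrays was left out. Socs2 was already bright in starved cells, at 3148 to 5686, and reached 7481 to 8562 at 1 h. Its difference was 0.72 ± 0.18 (adjusted p = 0.0485), and the call ended when any array other than starved replicate 3 was left out (adjusted p up to 0.352). Its other 5 probe sets had -0.10 to 0.89, none called.

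The list of JAK-STAT feedback and STAT5 response genes, 26 of 27 members tested, held 9 rises and 0 falls, with a median difference of 0.73 against -0.02 over all genes. Beyond the SOCS family genes, the rises were Osm, Cd69, Bcl2l1 and Il4ra, described below. Socs6 (1.20), a further gene of the SOCS family, is named to complete the count. Only 5 members were called when replicate 2 or replicate 3 of IL-2 1 h was left out, and also 5 under median centring. Several well-known IL-2 targets on the list were not called at this time. Pim1 and Pim2, survival kinases under STAT5, had differences of 0.74 ± 0.31 (adjusted p = 0.447) and 0.98 ± 0.51 (adjusted p = 0.583), and neither gene's arrays overlapped between the groups. Il2ra, which encodes the receptor's high-affinity alpha chain, had 3337 to 5828 in starved and 5777 to 10110 in IL-2 1 h arrays, with a difference of 0.91 ± 0.31 (adjusted p = 0.254). The receptor's beta chain gene Il2rb had 0.10 ± 0.27 (adjusted p = 0.945). Bcl6, a transcriptional repressor, had the opposite sign, 369.7 to 943 in starved and 144.3 to 305.6 at 1 h, and missed the threshold at -1.53 ± 0.41 (adjusted p = 0.0863). It was called with scan day as a random block (adjusted p = 0.0471), under quantile normalisation (0.0349), with a pseudocount of 64 (0.0364) and with array weights (4.21e-05), and Il2ra with array weights (0.000401).

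The immediate early transcription factors were the group with most calls. Of 26 tested members (of 27 listed, Fosb being below the signal filter), 13 rose and 0 fell, and the median difference was 1.10. The AP-1 subunit Fos had 59.1, 129, 9.4, 55.3 and 5.3 in starved arrays and 2613, 459.2 and 505.7 in IL-2 1 h arrays. The groups were far apart, and replicate 1 stood above replicates 2 and 3. The difference was 4.03 ± 0.68 (adjusted p = 0.000468), and its size depends on the pseudocount because the starved mean lies under the array medians.

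Egr1, a zinc finger factor of the same class of genes, had 1872, 1958, 789.8, 744.8 and 605.6 in starved and 21590, 10500 and 8225 in IL-2 1 h arrays, a difference of 3.52 ± 0.57 (adjusted p = 0.000238). Egr2, its relative, had 51.4 to 145.7 and then 953.3, 418.9 and 322.7, with 2.30 ± 0.47 (adjusted p = 0.00647). For Fos, Egr1 and Egr2 alike, the highest 1 h array was replicate 1, scanned on another day than replicates 2 and 3. Within scan day 2 (1 array against 1) and scan day 3 (2 against 2) the differences were 3.45 and 3.72 for Egr1 and 2.65 and 2.21 for Egr2. On this probe set the Egr2 call ended without replicate 1 of IL-2 1 h (adjusted p = 0.094). A second Egr2 probe set, with a starved mean under the array medians, was called at 3.44 ± 0.56 (adjusted p = 0.000291).

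Atf3, a stress-induced bZIP factor, had 173.3 to 273.1 in starved and 837.3, 2026 and 1768 in IL-2 1 h arrays, a difference of 2.77 ± 0.37 (adjusted p = 9.46e-06). Here replicate 1 was the lowest of the 1 h arrays, the reverse of the order seen for Fos. Fosl1, which encodes the AP-1 subunit FRA1, had 7.4 to 61.6 and then 280.2 to 364.8, with 3.24 ± 0.74 (adjusted p = 0.0229). That call ended when any array other than starved replicates 2 and 5 was left out (adjusted p up to 0.169), and a second Fosl1 probe set had 1.75, not called. Ier2 and Ier3, small immediate early proteins, rose by 1.06 ± 0.25 (adjusted p = 0.0393) and 1.08 ± 0.26 (adjusted p = 0.0442). Both of these calls ended when any array other than starved replicate 2 was left out. The other called members, named to complete the count, were Maff (2.16), Csrnp1 (2.03), Fosl2 (1.33), Srf (1.27), Jun (1.14) and Ier5 (0.81). Junb, another AP-1 subunit, was bright in both groups at 3864 to 7051 and 5216 to 5851, with a difference of 0.16 ± 0.27 (adjusted p = 0.907). The count of 13 was 7 under median centring and also without replicate 1 or 3 of IL-2 1 h. It was 8 without replicate 2 of IL-2 1 h, and 8 without starved replicate 3 or 4.

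MAP kinase phosphatases, which remove the activating phosphates from MAP kinases, rose together with the immediate early genes. Dusp5, an ERK phosphatase, had 1252, 1033, 1670, 1271 and 1284 in starved and 6876, 7285 and 5795 in IL-2 1 h arrays. The arrays were close together within each group and far apart between them, with a difference of 2.35 ± 0.21 (adjusted p = 2.33e-09). Dusp1 had 399.3 to 1059 and then 3748 to 4599, with 2.54 ± 0.48 (adjusted p = 0.00235), and Dusp4 had 121 to 470.2 and then 1479 to 1645, with 2.44 ± 0.32 (adjusted p = 6.92e-06). These 3 were the called members among 17 tested, with 0 falls and a list median of 0.65, against 0.65 over the fibroblast markers, of which 0 of 7 were called. Dusp6, the phosphatase most tied to ERK in many cells, had 0.50 ± 0.26 (adjusted p = 0.593) and overlapping groups. Zfp36, or tristetraprolin, which binds AU-rich elements and speeds mRNA decay, had 110.8, 170.1, 104.5, 88.4 and 105.3 in starved and 883.5, 675.6 and 667.8 in IL-2 1 h arrays. Its difference was 2.54 ± 0.33 (adjusted p = 6.63e-06), and it was the 1 member called among 14 tested genes of mRNA decay and translational repression.

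Since many of these genes are known targets of SRF or STAT proteins, RefSeq promoter windows (mouse build GRCm38.p6, 250 bases before to 50 after each start site) were searched on both strands. Windows were found for 71 of the 95 raised and 26 of the 32 lowered genes. The shares over all genes below cover every gene with a window, tested on the arrays or not. The raised genes had 100 windows, the lowered 34 and all genes 32851, and a gene with more windows has more chances of a match. A CArG box, the binding motif of SRF, was in the windows of 6 of the 71 raised genes (8.45%) and 0 of the 26 lowered genes, and in 1.81% of 27025 genes in all. The STAT5 motif TTCNNNGAA was in 11 raised genes (15.5%) and 5 lowered genes (19.2%), and in 9.55% of all genes. The CRE motif TGACGTCA was in 5 raised genes (7.04%), against 2.03% of all, and the AP-1 motif TGAGTCA in 4 (5.63%), against 5.95% of all. A match describes letters in a window and is not evidence of binding, and several windows of 1 gene overlap. The upstream stretches of 4 raised genes of the feedback and immediate early groups are shown 5′ to 3′ on the gene's strand. They were chosen because they hold a CArG box or a STAT5 motif. Capitals mark CArG boxes in Egr2 (chr10:67537474-67537523, plus strand), Dusp5 (chr19:53529043-53529102, plus strand) and Zfp36 (chr7:28379229-28379306, minus strand). In Zfp36 the second run of capitals is a STAT5 motif, and in Socs3 (chr11:117969492-117969540, minus strand) the capitals are a STAT5 motif.
Egr2: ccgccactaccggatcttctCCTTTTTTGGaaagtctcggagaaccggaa
Dusp5: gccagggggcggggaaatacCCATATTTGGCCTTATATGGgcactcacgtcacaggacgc
Zfp36: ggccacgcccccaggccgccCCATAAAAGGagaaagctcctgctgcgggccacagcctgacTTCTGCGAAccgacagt
Socs3: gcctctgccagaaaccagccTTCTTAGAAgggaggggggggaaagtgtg
The boxes start 72 bases before the start site in Egr2, 82 and 72 in Dusp5, where a pair stands end to end, and 58 in Zfp36. The STAT5 motifs start 17 bases before the start site in Zfp36 and 154 in Socs3. The motifs shown do not overlap each other.

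Secreted factors were led by Hbegf, an EGF-family growth factor. Its signals were 243.6, 145.8, 151.9, 69 and 238.5 in starved and 4119, 7080 and 7311 in IL-2 1 h arrays, the largest difference of the comparison on 1 probe set per gene at 5.12 ± 0.70 (adjusted p = 1.39e-05). Osm, a cytokine of the IL-6 family and a known STAT5 target, had 580.6, 543, 383.1, 441.9 and 345.8 and then 5900, 7597 and 7488, with 3.90 ± 0.48 (adjusted p = 3.2e-06). For both genes the 1 h arrays lay more than an order of magnitude above the starved mean, replicate 1 being the lowest. These were the 2 called members of 25 tested cytokines, growth factors and chemokines. Ifng, the effector cytokine of cytotoxic T cells, was dim, at 64.2 to 119 and then 162.1 to 338, and was not called (1.26 ± 0.64, adjusted p = 0.574).

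Among receptors, Il4ra, the alpha chain that binds interleukin 4, had 942.9, 837.3, 575.1, 674.6 and 786 in starved and 1862, 1827 and 1694 in IL-2 1 h arrays, a rise of 1.24 ± 0.23 (adjusted p = 0.00235). Its other 2 probe sets had 1.09 and 0.42, not called. It was the 1 member called of 25 cytokine and chemokine receptors. Cd69, an early activation antigen of lymphocytes, had 2827, 3641, 999.6, 455.7 and 2611 and then 12100, 6072 and 7995, with 2.33 ± 0.54 (adjusted p = 0.0296), and was the 1 member called of 19 activation and costimulatory receptors. The starved arrays of Cd69 were widely spread, replicates 3 and 4 being low. Its call ended without starved replicate 3 or 4 or any IL-2 1 h array (adjusted p up to 0.152).

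Myc and Mycn, transcription factors that drive cell growth, both rose. Myc had 325, 323.6, 207.3, 118.2 and 119 in starved and 4146, 2473 and 2412 in IL-2 1 h arrays, a difference of 3.76 ± 0.56 (adjusted p = 7.39e-05). Mycn had 517.4, 511.8, 181.8, 78.2 and 201.3 and then 4178, 3292 and 3380, with 3.81 ± 0.65 (adjusted p = 0.000538). On every IL-2 1 h array both genes were above all starved arrays, and both calls held whichever array was left out. A second Mycn probe set was called at 2.27 and another had -0.39 (adjusted p = 0.892), at signals near the array medians. The other 11 tested members of the MYC, MAX and MXD network were not called.

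Growth and biosynthesis lists held few calls at 1 h, and so did all genes, of which 0.661% were called. A low count therefore does not set these lists apart. Of 42 ribosome biogenesis genes, 0 were called, 14 had a positive difference and the median was -0.11. Of 27 genes of translation and of nucleotide or polyamine synthesis, 1 rose: Eif1a, a factor for start codon scanning, by 1.24 ± 0.30 (adjusted p = 0.0442), a call that ended when any array other than starved replicates 2 and 5 was left out. A second Eif1a probe set had 0.89, not called. Odc1, the first enzyme of polyamine synthesis and a MYC target, missed the threshold at 1.03 ± 0.27 (adjusted p = 0.0744), with 4668 to 7255 in starved and 10100 to 13470 in IL-2 1 h arrays. It was called under 5 alternatives, among them scan day as a random block (adjusted p = 0.0432). Of 23 transport and glycolysis genes, 0 were called. Among 21 G1 cyclins, kinases and inhibitors the count was also 0. Ccnd2 and Ccnd3, the D-type cyclins of lymphocytes, had 0.30 ± 0.16 (adjusted p = 0.603) and -0.06 ± 0.30 (adjusted p = 0.974). The other probe sets of Ccnd2 had 0.19 to 1.255, none called, and some of them were higher at 1 h without overlap. Those of Ccnd3 had -1.33 and 0.11, not called and with overlapping groups.

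Among regulators of apoptosis, 1 pro-apoptotic gene and 1 survival gene were called, both higher. Pmaip1, or NOXA, a pro-apoptotic BH3-only protein that binds MCL1, had 3558, 4721, 2525, 1698 and 4535 in starved and 10140, 11570 and 12500 in IL-2 1 h arrays, a rise of 1.83 ± 0.25 (adjusted p = 9.46e-06). Bcl2l1, whose main product BCL-XL blocks apoptosis, had 985.6, 1098, 768.5, 606.6 and 687.8 and then 1891, 2683 and 2522, with 1.51 ± 0.37 (adjusted p = 0.0451). Both transcripts were higher on all IL-2 1 h arrays than on all starved ones, but the Bcl2l1 call ended when any array other than starved replicate 2 was left out (adjusted p up to 0.304). The other 3 probe sets of Bcl2l1 had differences of 0.63 to 1.76 and were not called. Each gene was the 1 member called on its list, of 17 pro-apoptotic and 12 survival genes. The list medians were -0.1 (7 of 17 positive) and 0.08 (6 of 12 positive), against -0.02 over all genes. Bcl2 had -0.13 ± 0.35 (adjusted p = 0.945) and Mcl1 0.73 ± 0.25 (adjusted p = 0.273), both with overlapping groups, and other probe sets of Bcl2 (0.10 to 0.98) and Mcl1 (-0.04 to 0.58) differed in sign.

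The NF-κB list, in which inhibitors and targets are mixed, held 1 rise and 2 falls among 17 tested genes, and all of these were genes of inhibitor-of-κB proteins. Nfkbid, which encodes a nuclear member, had 1165, 1050, 841.2, 792.8 and 805.8 in starved and 130.9, 283.1 and 234.7 in IL-2 1 h arrays, a difference of -2.07 ± 0.33 (adjusted p = 0.000238). Nfkbia, which encodes the cytoplasmic inhibitor IκBα, had 5760, 4811, 4618, 7044 and 4201 and then 3829, 2040 and 2145, with -1.02 ± 0.19 (adjusted p = 0.00291). The other 4 probe sets of Nfkbia had -0.90 to -0.53, none of them called. Its call ended without replicate 2 or 3 of IL-2 1 h (adjusted p up to 0.105), and replicate 1 lay closest to the starved arrays: within scan day 2 the difference was -0.33 and within scan day 3 -1.07. Nfkbiz, the nuclear inhibitor IκBζ that also acts as a co-activator, had 166, 162.7, 189.1, 50.3 and 144.1 and then 701.9, 331.6 and 372.8, a rise of 1.64 ± 0.34 (adjusted p = 0.00851). The Nfkbiz call ended without replicate 1 of IL-2 1 h (adjusted p = 0.108), and its other 2 probe sets had 0.93 and 0.27, not called.

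Several strongly raised genes belonged to none of the signalling lists. Enah, an Ena/VASP protein that promotes actin filament growth, was at 4.2, 15.6, 2.8, 4.2 and 8.8 in starved cells and at 280.9, 545.7 and 506.6 at 1 h, with 4.29 ± 0.61 (adjusted p = 3.42e-05). Its starved signals lie under the array medians, so the size depends on the floor, and it ran from 2.46 to 5.94 over the alternatives without changing sign. Of 4 further Enah probe sets, 3 had 1.29 to 1.74 and 1 had -0.49, none called. Fes, a cytoplasmic tyrosine kinase, had 16.5 to 45.2 and then 153.8, 347 and 454.7, with 2.94 ± 0.32 (adjusted p = 2.55e-07), and Frmd4b, a FERM domain scaffold protein, had 156.2 to 411.5 and then 2744, 1748 and 1713, with 2.81 ± 0.37 (adjusted p = 9.46e-06). Both genes had more than 1 called probe set, and a further one of Frmd4b had 1.71, not called. Replicate 1 was the lowest 1 h array for Fes and the highest for Frmd4b. The starved mean of Fes (25.2) also lies under the array medians. Its difference was 1.47 within scan day 2 and 3.51 within scan day 3.

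On the brightest probe set of each gene, the largest falls were those of H3f3b and of Nfkbid, given above. Other called probe sets, chosen after their values were seen, fell further: those of Tle3 (-2.54) and Pdk1 (-2.31), and 2 with no gene name (-2.59 and -2.50). The probe set assigned to H3f3b, the gene of the replacement histone H3.3, had 1317, 1389, 1077, 668.3 and 615.3 in starved and 292.1, 160.2 and 187.8 in IL-2 1 h arrays, a difference of -2.13 ± 0.34 (adjusted p = 0.000238). It was the 1 probe set tested for the gene, and whether it measures the main H3f3b transcript was not checked. H3c4, a replication-dependent histone H3 gene, had 642.2, 552.4, 326.5, 231.7 and 268.4 and then 133.9, 76.6 and 103, with -1.72 ± 0.35 (adjusted p = 0.00706). The calls for H3f3b and Nfkbid were the 2 among the 12 largest falls that held whichever array was left out. The H3c4 call ended without replicate 2 or 3 of IL-2 1 h.

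Of the lowered genes, Zfp566, Zfp101 and Zkscan14 encode zinc finger proteins. Zfp566 had 129.5 to 289.3 in starved and 115.7, 93.5 and 9 in IL-2 1 h arrays (-1.73 ± 0.42, adjusted p = 0.0442; -0.98 and adjusted p = 0.807 without replicate 3 of IL-2 1 h), Zfp101 157.7 to 282.5 and then 40.4 to 85.2 (-1.53 ± 0.38, adjusted p = 0.0455), and Zkscan14 597.4 to 937.5 and then 243.7 to 415 (-1.16 ± 0.26, adjusted p = 0.0197). Tgif1, a homeobox repressor in TGF-β signalling, had 789.2, 768.7, 711.4, 845.9 and 623.7 and then 450.2, 154.9 and 234.2, with -1.49 ± 0.31 (adjusted p = 0.00888). Trim59, a TRIM family protein, had 417.7 to 815.2 and then 382.8, 144.3 and 164.6 (-1.41 ± 0.34, adjusted p = 0.0374). Further probe sets, none of them called, had -0.79 for Zfp101, -1.11 for Trim59, and -0.46 and -0.22 for Zkscan14. In Tgif1 and Trim59 the IL-2 1 h arrays differed among themselves, replicate 1 being the highest and nearest to the starved arrays. Within scan day 2 the Tgif1 difference was -0.75, and within scan day 3 it was -1.72.

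The remaining named falls were Farp1, a FERM domain guanine nucleotide exchange factor (-1.35 ± 0.32, adjusted p = 0.0296), Osgin1, an oxidative stress-induced growth inhibitor (-1.19 ± 0.26, adjusted p = 0.0144), and the unnamed transcripts 1700024J04Rik (-1.73 ± 0.34, adjusted p = 0.00442) and 9930012K11Rik (-1.12 ± 0.24, adjusted p = 0.0117). Farp1 was even across the IL-2 1 h arrays, at 258.7 to 283.6 against 488.3 to 896.8 in starved cells. Leaving out 1 array ended 10 of the 12 calls in at least 1 fit. Replicate 3 of IL-2 1 h was needed for each of those 10, and replicate 2 for all of them except 1700024J04Rik. Replicate 1 of IL-2 1 h was needed for Farp1 and Osgin1. Some starved replicate was also needed for Zfp566, Zfp101, Trim59, Farp1, Osgin1 and Zkscan14. Of the 42 lower probe sets, 19 had a 1 h mean under the array medians, against 13 of the 125 higher ones with such a starved mean.

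**Figure D2:**
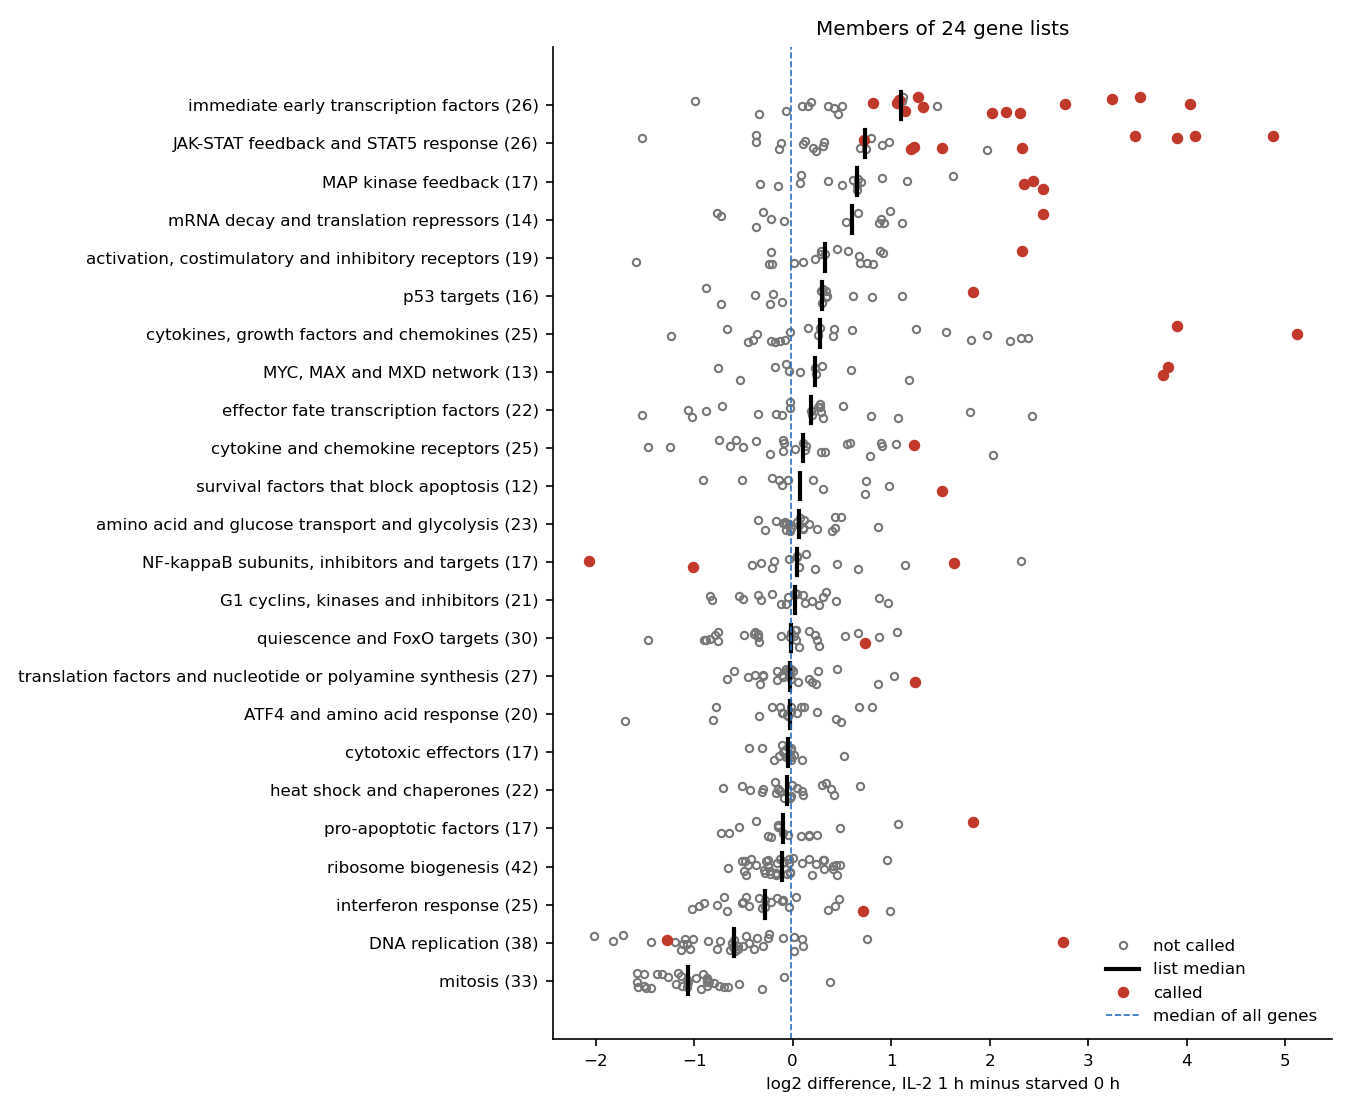
Log2 difference of IL-2 1 h minus starved 0 h for each tested member of 24 gene lists, sorted by list median, with the number of tested members in brackets. Red points are called members, open points members that were not called, black bars list medians and the dashed line the median of all 14534 genes (-0.02). Called members are most numerous in the immediate early (13) and JAK-STAT feedback (9) lists, and the mitosis list lies lowest at -1.06 with 0 called.

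DNA replication genes held 1 rise and 1 fall among 38 tested, with a median of -0.59. Orc1, the large subunit of the origin recognition complex, had 139.9, 140, 172.8, 141.8 and 71.8 in starved and 1042, 927 and 907.3 in IL-2 1 h arrays, a rise of 2.75 ± 0.46 (adjusted p = 0.000467). All 1 h arrays lay far above the starved ones, and the call held without any single array. A second Orc1 probe set had 1.68 and was not called. Mcm6, a subunit of the replicative helicase, had 2519, 1929, 4006, 4879 and 1530 and then 1549, 980.1 and 902.9, with -1.27 ± 0.31 (adjusted p = 0.0441). Its groups overlapped, and its call ended without replicate 2 or 3 of IL-2 1 h and without starved replicate 1, 3 or 4. The second Mcm6 probe set had -0.75 (adjusted p = 0.601).

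Mitosis genes, such as those of cyclins, spindle kinases and kinesins, had 0 calls among 33 tested, although 32 had a negative difference and the median was -1.06. The starved arrays themselves were split on this list. Their list medians, taken against the mean of the starved arrays, were -1.16, -0.58, 1.10, 1.05 and -0.40 for replicates 1 to 5, and those of the IL-2 1 h arrays were -0.95, -1.14 and -1.20. Starved replicates 3 and 4 stood high, and replicate 1 was as low as the IL-2 1 h arrays. Within scan day 2 the list median was -0.24 and within scan day 3 -1.56. The DNA replication list had the same split, with 0.49 and 0.55 on starved replicates 3 and 4 and -0.48 to -0.21 on the other 3. In such bulk samples fewer cells of a kind and less RNA per cell cannot be told apart.

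**Figure D3:**
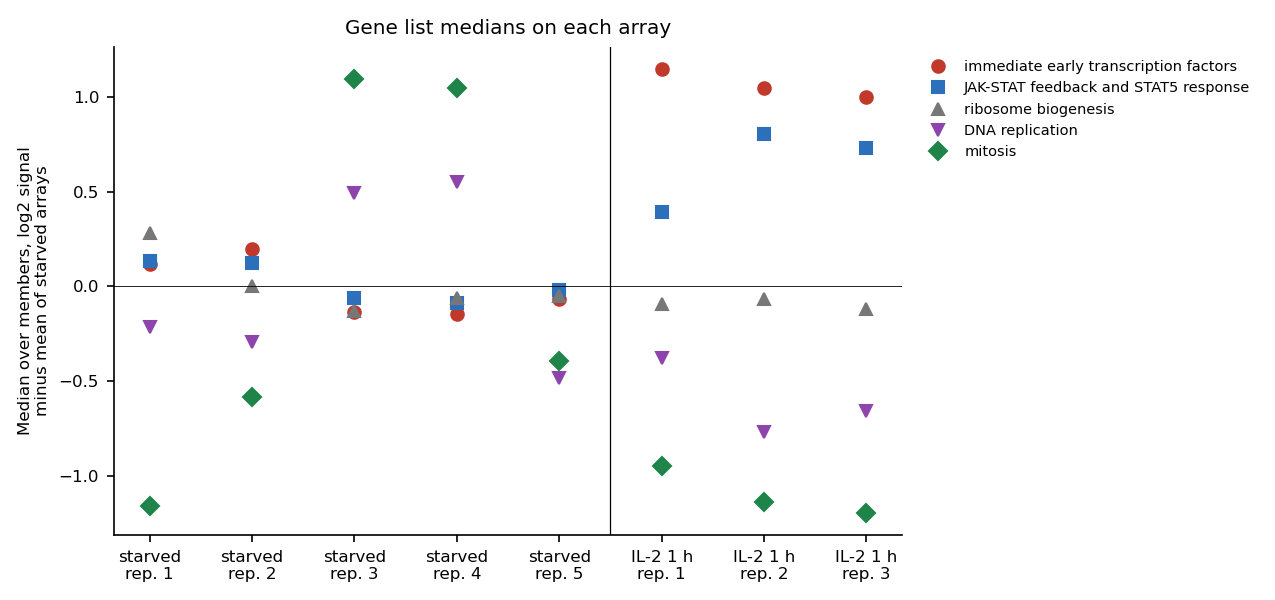
Median over list members of the log2 signal on each array, minus the mean of the 5 starved arrays, for 5 gene lists. The immediate early list lies near 0 on all starved arrays and between 1.00 and 1.15 on the IL-2 1 h arrays, whereas the mitosis list runs from -1.16 to 1.10 within the starved arrays.

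The other lists held few or no calls, which does not set them apart from all genes (0.661% called). Of 25 interferon response genes 1 rose, Irf9, the DNA-binding subunit of ISGF3, by 0.71 ± 0.18 (adjusted p = 0.0486). That call ended in each of the 8 fits that left out 1 array. Of 30 quiescence and FoxO target genes 1 rose, Klf7, a Krüppel-like factor, by 0.73 ± 0.18 (adjusted p = 0.0411). It was called on 3 of its 4 probe sets, and on this one the call ended without replicate 2 or 3 of IL-2 1 h or starved replicate 1, 2, 3 or 4. Klf2, the factor best known for keeping T cells quiescent, was dim at 7 to 148.1 and then 49.3 to 134 (1.06 ± 0.62, adjusted p = 0.643), and Il7r was below the signal filter. Cytotoxic effectors (17 tested), effector fate factors (22), ATF4 targets (20) and chaperones (22) had 0 calls. Gzmb, a main granule protease of these cells, was at 29490 to 46200 and then 29440 to 38700, with -0.02 ± 0.20 (adjusted p = 0.988). Irf4, a factor of effector T cells, had 167.3 to 449.2 and then 786.5 to 1347 without overlap, and was not called (1.80 ± 0.60, adjusted p = 0.248), except with the compared arrays alone (adjusted p = 0.036) and with array weights (0.00939). The 16 p53 targets held 1 rise, Pmaip1, which is also on the pro-apoptotic list.

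Comparison with the neighbouring times asked which transcripts had already turned by 1 h and which had yet to do so. Against the 0.5 h arrays limma called 0 probe sets (0%), with 905 at an unadjusted p under 0.05, and against the 2 h arrays 10 were called (0.0311%), 7 higher (0.0217%) and 3 lower (0.00932%) at 2 h, with 1380 at an unadjusted p under 0.05. These comparisons share the 1 h arrays with each other and with the main one. At 0.5 h replicates 1 and 2 were scanned on day 2 and replicate 3 on day 3. At 1 h replicate 1 was scanned on day 2 and replicates 2 and 3 on day 3, and at 2 h replicate 2 on day 2 and replicates 1 and 3 on day 3. The step from 0.5 to 1 h is thus not balanced for scan day. Of the 125 raised probe sets, the highest mean among 0.5, 1, 2 and 4 h belonged to 0.5 h in 13 cases, to 1 h in 49, to 2 h in 37 and to 4 h in 26. Of the 42 lowered ones, the lowest mean was that of 1 h in 35. The calls were made on the 1 h arrays, which favours 1 h in both counts.

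**Figure D4:**
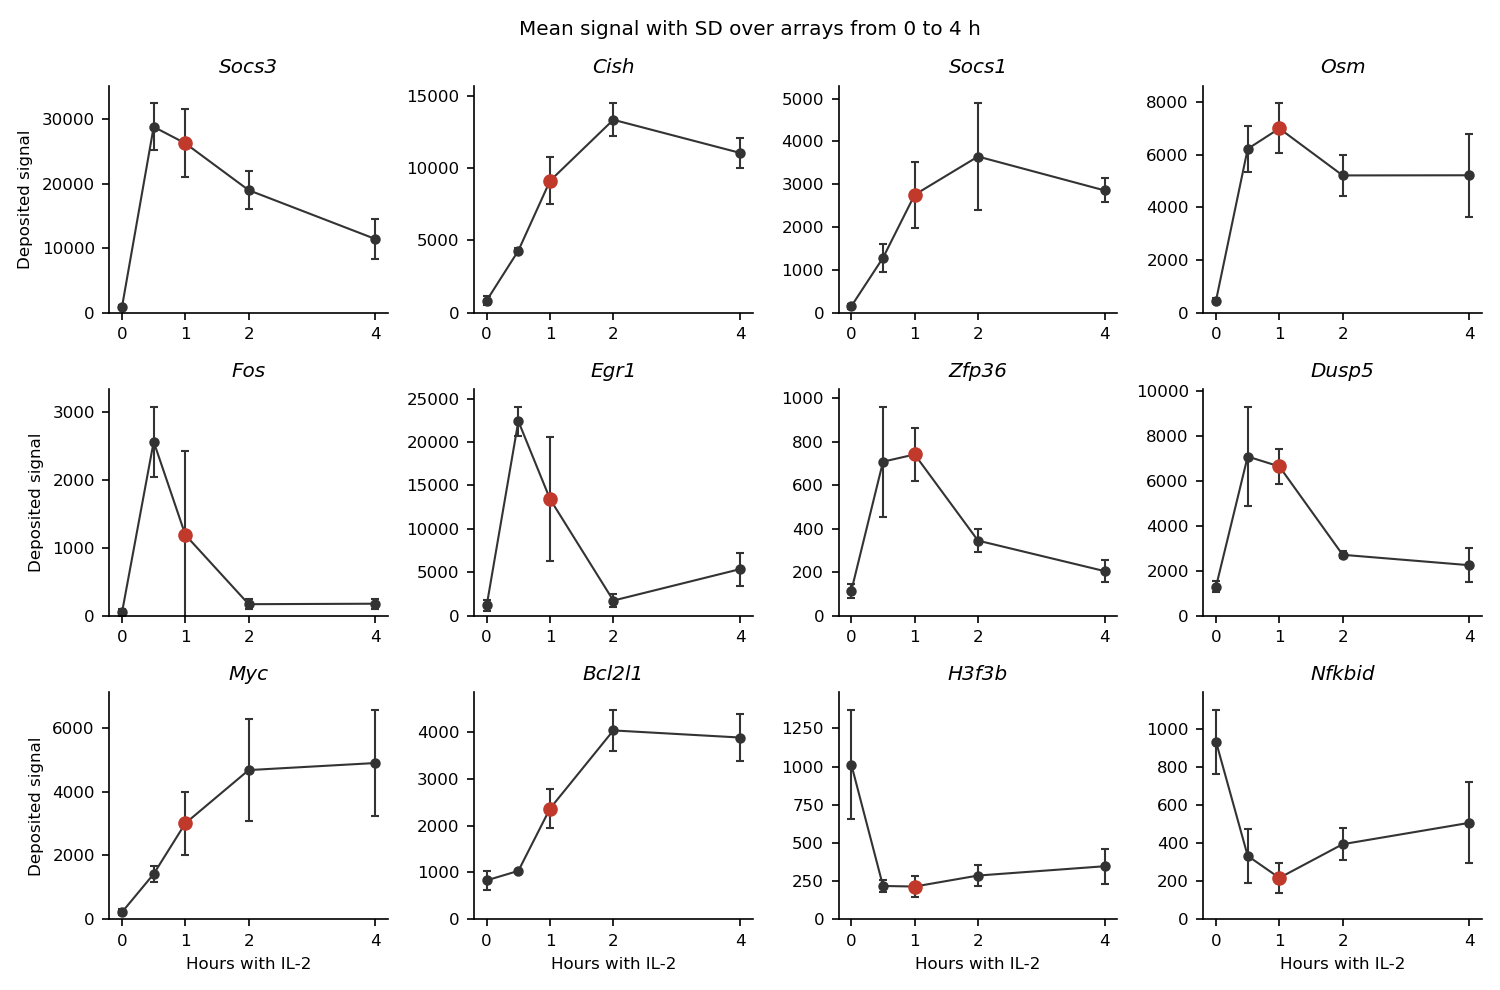
Mean deposited signal with SD over arrays at 0 h (n = 5), 0.5 h (n = 3), 1 h (n = 3, red), 2 h (n = 3) and 4 h (n = 4) for 12 genes, each on its own linear axis from 0. Fos and Egr1 have their highest mean at 0.5 h and means of 172 and 1759 at 2 h, Cish has its highest mean at 2 h, and H3f3b and Nfkbid have their lowest mean at 1 h. The lower SD bar of Fos at 1 h reaches below 0 and is clipped there.

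Group means were highest at different times. Over 0.5, 1 and 2 h in turn, Fos had 2567 ± 516 (SD), 1193 ± 1230 and 172 ± 76, and Egr1 22400 ± 1670, 13440 ± 7150 and 1759 ± 751. The SD at 1 h is large because replicate 1 (2613 for Fos, 21590 for Egr1) lay near the 0.5 h means. Nfkbiz had 1486 ± 416, 468.8 ± 203 and 308.7 ± 21.5. Cish had 4286 ± 157, 9115 ± 1620 and 13340 ± 1130, and Bcl2l1 1032 ± 29.5, 2366 ± 418 and 4039 ± 440. The arrays of the 3 times did not overlap for Cish or Bcl2l1. Of all genes, 2.83% were higher and 4.02% lower without overlap from 0.5 to 1 h, and 5.78% and 5.79% from 1 to 2 h. Socs3 was at 28810 ± 3630, 26250 ± 5250 and 18990 ± 2960, and Osm at 6219 ± 865, 6995 ± 950 and 5211 ± 793, which overlapped between 0.5 and 1 h. The arrays of Fos and Egr1 also overlapped between 0.5 and 1 h, and those of Nfkbiz did not. None of these steps between neighbouring times was called.

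Between 1 and 2 h, 7 of the 14534 genes (0.0482%) were called on their brightest probe set, 4 higher (0.0275%) and 3 lower (0.0206%), and of these Dusp5 alone was also called at 1 h against starved cells. Dusp5 fell from 6652 ± 770 at 1 h to 2719 ± 150 at 2 h, by 1.28 on the log2 scale (SE 0.24, adjusted p = 0.0166). Ptpre, a receptor-type tyrosine phosphatase, had 1252, 1457 and 1322 at 1 h and a mean of 3513 ± 237 at 2 h (1.38 ± 0.20, adjusted p = 0.000685). Ptprg, a relative, went from 570.9 ± 273 to 2562 ± 726 (2.19 ± 0.44, adjusted p = 0.0426). Gpr155, a multi-pass membrane protein, and Adamts6, a secreted metalloprotease, rose by 2.59 ± 0.49 (adjusted p = 0.0196) and 2.20 ± 0.44 (adjusted p = 0.0469) from 1 h means near the array medians. Chac1, which degrades glutathione, went from 1972 ± 1100 to 458.1 ± 321 (-2.14 ± 0.38, adjusted p = 0.0103), with replicate 1 at 3241 and replicates 2 and 3 at 1375 and 1301. Bcl11b, a transcription factor of the T cell lineage, went from 1135 ± 177 to 405.8 ± 59.9 (-1.45 ± 0.21, adjusted p = 0.000685). Against starved cells none of the last 6 was called at 1 h, with differences of -1.13 to 0.14. The calls for Ptpre and Bcl11b held in all 6 fits that left out 1 of the 1 h or 2 h arrays (adjusted p up to 0.0124). That of Dusp5 ended in all 6 (adjusted p up to 0.194), those of Gpr155, Adamts6 and Ptprg in 5, and that of Chac1 in 3. Under median centring the calls of all 3 falls and of Ptpre ended (adjusted p = 0.0632 to 0.635). No step changed sign. These fits for single genes were chosen after the data were seen.

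The 167 called probe sets kept their sign within each scan day that held both groups, at medians of 1.10 and -1.21 on day 2 (1 array against 1) and 1.45 and -1.47 on day 3 (2 against 2). These arrays are part of the fit that made the calls. The authors' deposited table of probe sets that changed over the time course listed 122 of the 167 (73.1%), 101 of the 125 higher (80.8%) and 21 of the 42 lower (50%). The authors' deposited table holds 3838 probe sets, which are 11.9% of those tested here. Of the called probe sets, 40 were among the 101 of its cluster 6 and 36 among the 335 of its cluster 9 in the authors' deposited table. The table was made from these same arrays, so the overlap is no independent support.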

How the data were processed

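Biotin-labelled cRNA of 43 samples was hybridised, and GCOS 1.3 made the signals, per the submitters' processing notes. The authors deposited them as signal intensity on a linear scale, and nothing in the sources used here states the scaling target. The authors' deposited table of changed probe sets carries p-values, which were not used, and cluster numbers. Intensities were changed here to log2(signal + 16). The log2 values are computed from the deposited intensities. Probe sets above their array's median on at least 3 arrays were tested (32184 of 45101, of which 26336 carried 1 gene of the supplied annotation, 14534 genes; RefSeq, GRCm38.p6, changed 0 names). Limma 3.58.1 in R 4.3.3 fitted 1 mean per group to all 43 arrays (13 groups, 30 residual degrees of freedom), with a variance trend, two-sided tests and Benjamini-Hochberg adjustment over all tested probe sets in each of 3 comparisons. The spread is thus pooled over all groups, and the number of arrays limits the precision. Errors beside log2 differences are standard errors, and those beside signals are SDs. Called means an adjusted p under 0.05. Each gene is represented by its tested probe set with the highest mean, and where its other probe sets differ in sign or call this is said for the genes called. The genes named were the 15 largest called rises and 12 largest called falls without overlap, up to 4 called members of each list, a panel of IL-2 genes, and the 4 largest called changes each way at 0.5 and 2 h. The lists were written from general knowledge, and the comparison, members and lists were chosen with earlier results of these data known. Scan days came from the experiment files. Same-numbered starved and IL-2 1 h arrays did not deviate together (r = 0.0478, -0.358 and -0.00981), so numbers were not treated as pairs. Starved and IL-2 1 h arrays of the same scan day had r of -0.00981 to 0.408, and those of different days -0.358 to 0.11. The main fit has no term for scan day. Starved replicates 1 and 4 were scanned on days 1 and 4, which held no IL-2 1 h array. Alternatives changed the pseudocount, normalisation, floor, filter, arrays in the fit, blocks, variance model, weights, thresholds and probe set rule, or left out 1 array.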

Additional observations from a re-analysis of the deposited data

Results flagged for a closer look

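In the starved group, 6 of 68 sets of values had 1 array apart from the other 4 by Dixon's ratio, which chance flags in about 1 of 20 sets. Starved replicate 5 was high for Atf3 (273.1, the others 173.3 to 195.4), low for Orc1 (71.8, the others 139.9 to 172.8) and low for Pim1 (736, the others 1167 to 1383). Starved replicate 4 was low for Nfkbiz (50.3, the others 144.1 to 189.1) and for Socs2 (3148, the others 5010 to 5686). Starved replicate 2 had a median signal of 112.2, against 65.4 to 76.5 on the others. The calls for Atf3, Orc1 and Nfkbiz held without the array in question, and that for Socs2 ended.

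The following 7 genes differed between 2 and 1 h of IL-2 by the test of that difference, on the log2 scale: Gpr155 by 2.59, Adamts6 by 2.20, Ptprg by 2.19 and Ptpre by 1.38 upwards, and Dusp5 by -1.28, Chac1 by -2.14 and Bcl11b by -1.45.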

How the results depend on the processing

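Of the 45 named genes called at 1 h, none changed sign under any alternative. The main count of 167 probe sets was 108 under median centring, 262 and 293 with scan day as a fixed or random block, 14 and 100 on scan day 2 or 3 alone, 2734 with array weights (33.4% higher) and 98 at an adjusted p under 0.01. Leaving out 1 array gave 83 to 188. With the replicate block, although numbers did not pair the samples, it was 288 (50.7% higher). The other settings gave 112 to 247. For 1 h against 0.5 h the 0 calls became 2 and 1 with scan day as a fixed or random block, 2 on scan day 3 alone and 2271 with array weights; leaving out 1 array gave 0 in all fits, and the replicate block 0. For 2 h against 1 h the 10 calls became 18 under quantile normalisation, 4 under median centring, 23 with the compared arrays alone, 18 with the replicate block, 32 and 28 with scan day as a fixed or random block, 2 on scan day 2 alone, 404 with array weights and 5 at an adjusted p under 0.01, and 3 to 7 leaving out 1 array. The causes were not tested. Differences of uncalled genes changed sign as follows. Gzmb had 0.066 under quantile normalisation, 0.145 and 0.06 with scan day as a fixed or random block, 0.271 on scan day 3 alone and 0.081 with array weights. Ccnd3 had 0.062 and 0.055 with the fixed and random block, 0.085 on scan day 2 and 0.136 on scan day 3. Bcl2 had 0.009 with the fixed block, 0.265 on scan day 3 and 0.198 with array weights. Ptpre had -0.025 under median centring, -0.024 with the replicate block and -0.004 with array weights. On scan day 2 alone Il2rb had -0.034, Klf2 -0.13, Gpr155 -0.403, Adamts6 0.11, Ptprg 0.106 and Chac1 0.565. Leaving out 1 array, the range was -0.448 to 0.41 for Bcl2, -0.164 to 0.043 for Ccnd3, -0.109 to 0.089 for Gzmb, -0.155 to 0.586 for Gpr155, -0.493 to 0.044 for Ptprg and -0.052 to 0.16 for Ptpre. Among the uncalled genes whose sign changed on scan day 2 alone, Klf2 (means of 44.68 and 87), Gpr155 (89.12 and 108.5) and Adamts6 (114.8 and 49.87) were dim. Named genes that were not called became called as follows: Adamts6, Bcl6, Ccnd2, Il2ra, Irf4, Mcl1 and Odc1 with array weights, Bcl6 and Odc1 with scan day as a random block, Irf4 and Odc1 with the compared arrays alone, Bcl6 under quantile normalisation and with a pseudocount of 64, and Odc1 on scan day 3 alone and with the 75th percentile filter.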

Other observations

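Outside the naming rule, 11 further genes were called on more than 1 probe set, 10 with a rise and 1 with a fall. They were chosen after their values were seen. Gcnt2, an enzyme that branches glycan chains, rose on 4 probe sets by 1.23 to 1.70 on the log2 scale, and Klf9, a Krüppel-like factor, on 3 by 1.72 to 2.01. Rabgef1, an exchange factor for the endosomal GTPase RAB5, rose on 3 probe sets by 1.43 to 1.53. Cited2, a co-regulator that binds CBP and p300, rose by 1.48 and 1.87, and Etv3, an ETS-family repressor, by 1.42 and 1.52. Among receptors coupled to G proteins, Ptger4, a prostaglandin E2 receptor, rose by 1.14 and 1.49, and S1pr3, a sphingosine 1-phosphate receptor, by 1.34 and 1.41. Vamp3, a vesicle SNARE, rose by 1.17 and 1.21, Dcun1d3, a regulator of cullin neddylation, by 1.27 and 2.00, and Ccdc71l by 1.23 and 1.73. Tia1, an RNA-binding protein of stress granules, had -0.79 and -1.56 on its 2 called probe sets. Its brighter probe set had 865.4 to 1183 in starved and 529.1 to 629.8 in IL-2 1 h arrays.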
